A study of Gallus gallus with 14 samples.

Results

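The comparison of embryonic day 14 (E14) with embryonic day 10 (E10) covers the middle of 3 intervals in a time course of the chicken retinal pigment epithelium (RPE). Its members are the 3 arrays labelled E14 and the 3 labelled E10, which are 6 of the 14 arrays of the series. They were grouped by age label, with earlier results of these data known. The other arrays were 4 at E7 and 4 at E18. Every array held RNA of a separate preparation of pigment epithelium from normal chick embryos with no treatment, pooled from 20 to 30 eyes, so an array is the mean of many embryos and carries no spread between single animals. The tissue was kept in an RNA stabilizing solution, and labelled copies of the RNA, made from its 3′ end, were read on Affymetrix whole-genome chicken arrays.

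The RPE is the pigmented single-cell layer between the neural retina and the choroid, the vascular bed of the eye. It takes up vitamin A from the blood, turns it into the 11-cis form that the light-sensing opsins need, engulfs the shed tips of photoreceptors, and seals the retina from the blood with tight junctions. In the chick embryo it is pigmented early, while its barrier, its apical microvilli and its contacts with photoreceptors are built over later incubation. The labels give the ages and no treatment, and the comparison asks which transcripts differed between both ages in this middle interval.

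All values below are log2(signal + 16) after quantile normalization of the 6 arrays, where signal is the deposited intensity of a probe set, a group of short probes for 1 transcript. Differences are E14 minus E10 with the standard error (SE) of the fit, and n = 3 arrays at each age. The label of the tissue was set against 14 measured defining markers of the RPE, and none of them was dim, meaning at or below a log2 signal of 6.18, the level of the dimmest 40% of probe sets. Their summed signal was 232910.0 to 237895 on the E10 arrays and 275505 to 281666 on the E14 arrays. The deposited medians were 136, 103 and 93.1 on the E10 arrays and 85.6, 83.5 and 102 on the E14 arrays. The 6 arrays were hybridized in 1 session on 3 fluidics stations, with E10 on stations 1, 2 and 2 and E14 on stations 2, 2 and 3, so a station effect and an age effect are partly mixed. The first principal component held 29.8% of the variance and separated the ages, with E10 between -60.4 and -40.02 and E14 between 39.2 and 62.1. E10 replicate 1 stood at 70.3 on the second component (19.8%), and E10 replicate 2 at -55.4, with the other arrays between -26.2 and 22.5. The ratio of the 3′ to the 5′ probe sets for beta-actin, a measure of RNA integrity and labelling, was 1.36 to 1.48 at E10 and 1.46 to 1.73 at E14, and its part in the results was not tested. In pooled tissue, fewer cells of a type and less RNA per cell cannot be told apart.

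Of 38439 probe sets, 1506 (3.92%) were higher and 1466 (3.81%) lower at E14 at an adjusted p under 0.05 in limma's moderated test with Benjamini-Hochberg adjustment. The verbs rose, fell and changed stand for such calls only. At least a 2-fold difference was found for 366 of the higher and 243 of the lower probe sets. That balance depended on the scaling, with 258 higher and 385 lower on the deposited scale and 426 higher and 112 lower under median centring, described below. With 1 probe set for each of 13009 genes, 911 genes (7.00%) rose and 692 (5.32%) fell, and 196 and 74 of them by at least 2-fold. The median over all genes was 0.025. Leaving out E14 replicate 1, 2 or 3 left 1812, 1802 and 1933 called probe sets in place of 2972, and the fits without an E10 array called 2133 to 2865. Centring each array on its median in place of quantile normalization called 663 higher and 160 lower (80.6% higher against 50.7%). That scaling moved the median over all probe sets from -0.0049 to 0.14, and the deposited scale moved it to -0.11. Changes are therefore relative to the quantile normalized bulk of probe sets, and small shifts of bright genes depend on it.

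**Figure D1:**
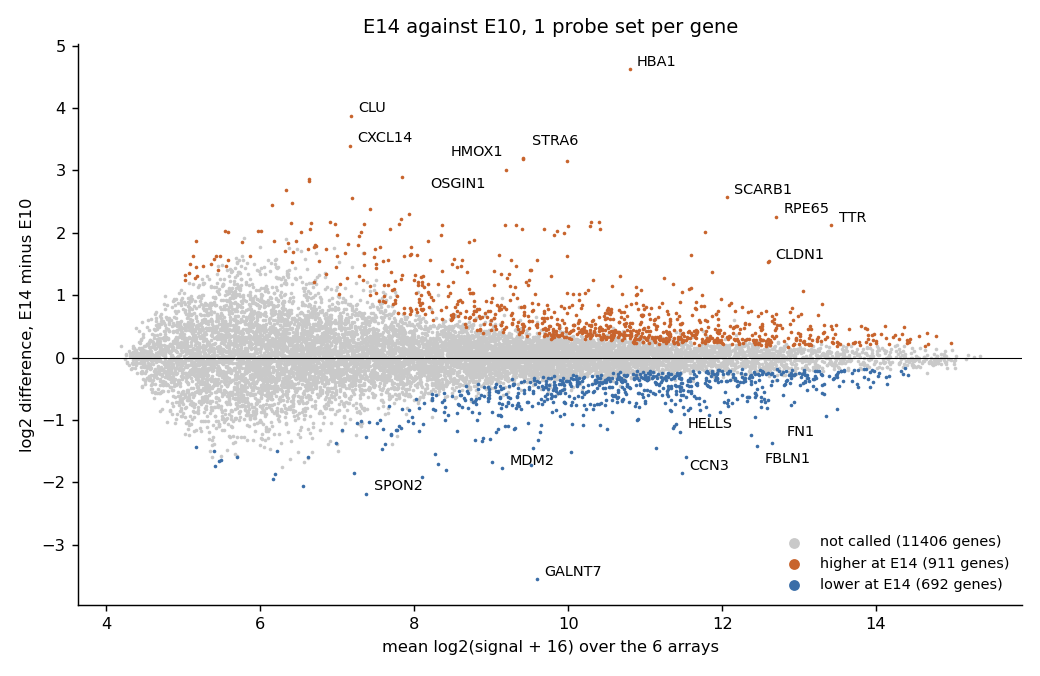
Each point is a gene, with the mean log2(signal + 16) over the 6 arrays on the x axis and the log2 difference, E14 minus E10, on the y axis; orange genes rose (911), blue genes fell (692) and grey genes were not called. Called differences of dim genes are large, while those of bright genes reach down to small values, and HBA1, CLU, CXCL14 and STRA6 lie at the top and GALNT7 at the bottom.

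The 33 gene lists below hold 1186 measured genes, all tested without a filter on low signal. Of these, 176 rose and 102 fell. Under median centring 86 rose and 13 fell, and with 1 prior variance for all signal levels, called here a fit without a variance trend, 53 rose and 22 fell. With the mean of all probe sets of a gene in place of its brightest one, used here, 149 rose and 104 fell. Among 26 lists with falling members, 19 had none under median centring and 16 none without the trend, and among 29 lists with rising members, 4 and 6 had none. Counts in brackets beside a list give its rising and falling members in these fits. The lists with the highest share of rising genes were sterol synthesis and lipid handling, oxidative stress defence, the RPE's defining markers, visual cycle and oxidative phosphorylation, each with 32.8% to 37.7% against 7.00% of all genes. Basement membrane genes had the highest share of falling members, 37.8% against 5.32%. The lists are described by these counts and their medians, with no test of a list as a whole, and some genes stand in several lists. RPE65, TTR, STRA6 and RLBP1 are rising members of both the visual cycle list and the RPE's defining markers. The share of all genes also covers dim genes. By contrast, 1 of 64 oxidative phosphorylation genes and none of the 14 defining markers was dim at both ages, so the shares are not of like signal. All lists were chosen with earlier results of these data known.

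**Figure D2:**
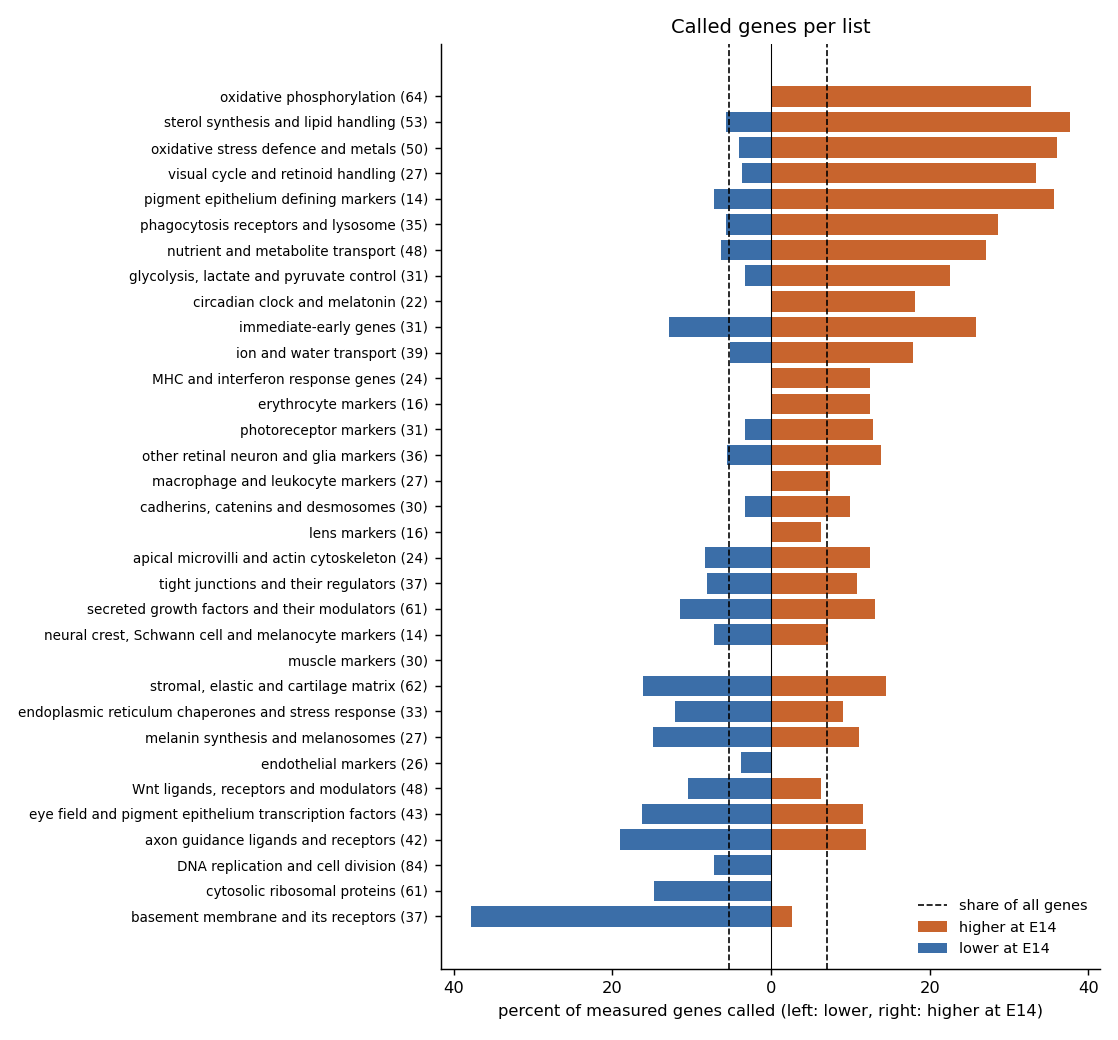
Bars give the percent of each list's measured genes (number in brackets) that rose (right, orange) or fell (left, blue), and dashed lines mark the shares of all genes, 7.00% and 5.32%. The longest bars to the right are sterol and lipid genes (37.7%) and the longest to the left basement membrane genes (37.8%), and no muscle marker was called.

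Many genes of vitamin A handling rose: 9 of 27 measured genes rose and 1 fell (6 and 0 under median centring, 5 and 1 without a variance trend). The list median was 0.24. The rising share was 33.3% against 7.00% of all genes, and the falling share 3.70% against 5.32%. With all probe sets averaged 13 rose and 1 fell. STRA6, the membrane receptor that takes up retinol from its blood carrier, read 7.86, 7.92 and 7.63 on the E10 arrays and 11.18, 10.98 and 10.87 on the E14 arrays. All E14 arrays lay above all E10 arrays, a rise of 3.21 ± 0.12 (SE), or 9.23-fold (adjusted p = 2.25e-07). RPE65, the isomerase that forms the 11-cis retinoid, read 11.50, 11.66 and 11.58 on the E10 arrays and 13.80, 13.86 and 13.84 on the E14 arrays. The 3 arrays of each age lay within a narrow band, far from the other age, and the rise was 2.26 ± 0.055 (SE), or 4.79-fold (adjusted p = 1.72e-08). TTR, transthyretin, which carries retinol with its binding protein and thyroid hormone, read 12.31, 12.42 and 12.34 on the E10 arrays and 14.45, 14.46 and 14.53 on the E14 arrays. It was higher on each E14 array by 2.12 ± 0.050 (SE), or 4.36-fold (adjusted p = 1.72e-08).

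RBP4, the retinol binding protein that STRA6 docks with, read 8.73, 8.92 and 9.17 on the E10 arrays and 10.999, 11.12 and 11.02 on the E14 arrays. The groups did not overlap, and RBP4 rose by 2.11 ± 0.11 (SE), or 4.32-fold (adjusted p = 2.33e-06). The other members that rose were BCO1, which cleaves beta-carotene (0.86), the peropsin RRH (0.85), the retinol dehydrogenases RDH11 (0.52) and RDH5 (0.48), and RLBP1. RLBP1, the cellular binding protein for 11-cis retinoids, rose by 0.24 ± 0.050 (SE, adjusted p = 0.0151), and its call ended without E14 replicate 1, 2 or 3 (adjusted p = 0.0581 to 0.0661). It read 14.77, 14.88 and 14.91 on the E10 arrays and 15.09 on every E14 array. The E14 values are equal after quantile normalization, so their spread of 0 reflects equal rank. LRAT, which esterifies retinol, read 4.67, 5.81 and 5.85 on the E10 arrays and 6.83, 6.71 and 7.27 on the E14 arrays. The E10 arrays were dim and lay below the E14 arrays, but the difference of 1.49 ± 0.45 (SE) was not called (adjusted p = 0.0764), and it was 0.94 with the fluidics station as a block. The member that fell was CYP1B1, a cytochrome P450 that oxidizes retinoids and steroids, with 11.37, 11.41 and 11.41 on the E10 arrays and 10.37, 10.45 and 10.39 on the E14 arrays. No E14 array reached the E10 arrays, and CYP1B1 fell by 0.99 ± 0.059 (SE, adjusted p = 6.26e-06).

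By the brightest probe set of each gene, melanin genes went both ways. Of 27 measured genes of melanin synthesis and melanosomes 3 rose (11.1% against 7.00% of all genes) and 4 fell (14.8% against 5.32%), and their median was 0.012. Under median centring 1 rose and 1 fell, and without a variance trend none was called. With the mean of all probe sets of a gene, 0 rose and 6 fell. TYR, tyrosinase, the rate-limiting enzyme of melanin synthesis, read 14.82, 14.86 and 14.86 on the E10 arrays and 14.91, 14.79 and 14.82 on the E14 arrays, and the groups overlapped (-0.0089 ± 0.048 SE, adjusted p = 0.953). TYRP1, the tyrosinase-related protein, differed by 0.035 ± 0.046 (SE, adjusted p = 0.758). The genes that rose encode melanosome biogenesis proteins DTNBP1 (0.51) and HPS1 (0.30) and the glycoprotein GPNMB (0.30). The list held 1 without E14 replicate 1 or 2 in place of 3 rising genes. The genes that fell were HPS3, a melanosome biogenesis protein (-0.94), the cation channel TRPM1 (-0.54), the small GTPase RAB38, which steers melanosome cargo (-0.44), and the cation exchanger SLC24A5 (-0.30).

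Among 43 measured transcription factors of the eye field and RPE, 5 rose (11.6% against 7.00% of all genes). Of these 43, 7 fell (16.3% against 5.32%), and the median was 0.11. Under median centring 4 rose and 0 fell, without a variance trend 2 and 0, and with all probe sets averaged 2 and 4. MITF, the master regulator of pigment cells, read 11.68, 11.55 and 11.64 on the E10 arrays and 11.23, 11.10 and 11.19 on the E14 arrays. The E14 arrays were all lower, and MITF fell by 0.45 ± 0.062 (SE, 1.37-fold, adjusted p = 0.00141), a call that ended in the fit of all 14 arrays (adjusted p = 0.115). PAX6, an eye field factor, read 9.80, 10.15 and 9.96 on the E10 arrays and 9.48, 8.997 and 9.45 on the E14 arrays. Its groups did not overlap, and it fell by 0.66 ± 0.14 (SE, adjusted p = 0.0176), with the call lost without E10 replicate 2 or 3 (adjusted p = 0.0636 to 0.0722). OTX2, which acts with MITF on pigment genes, overlapped between ages (0.0071 ± 0.055 SE, adjusted p = 0.969). ETV5 (-0.64) and ETV4 (-0.85), ETS factors known as targets of fibroblast growth factor signalling, fell, as did the MITF relative TFEC (-0.50), the corepressor NRIP1 (-0.46) and ID4 (-0.38). The factors that rose were RXRG, a retinoid X receptor (1.82), the Kruppel-like factor KLF9 (1.08), ID3, an inhibitor of helix-loop-helix factors (1.01), and the clock repressors NR1D2 (0.82) and BHLHE40 (0.79). Of 4 probe sets for BHLHE40, the brightest gives this value, while a dimmer one fell by 1.67 ± 0.41 (SE, adjusted p = 0.0344) and the other two were not called. The rising factors numbered 2 to 3 without E14 replicate 1, 2 or 3.

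The tight junction list, 37 genes, held 4 that rose (10.8% against 7.00% of all genes) and 3 that fell (8.11% against 5.32%). Its median was -0.034. Under median centring 2 rose and 0 fell, without a variance trend 2 and 0, and with all probe sets averaged 3 and 2. CLDN1, a claudin that forms the paracellular seal, read 11.74, 11.92 and 11.83 on the E10 arrays and 13.31, 13.33 and 13.43 on the E14 arrays. The E14 arrays were all higher, by 1.52 ± 0.060 (SE), or 2.88-fold (adjusted p = 3.31e-07). CLDN2, a claudin that forms cation pores in mammals, read 9.74, 9.77 and 9.59 on the E10 arrays and 10.84, 10.92 and 11.05 on the E14 arrays. It rose on every array, by 1.24 ± 0.082 (SE), or 2.36-fold (adjusted p = 1.16e-05). OCLN, occludin, read 7.65, 7.71 and 7.66 on the E10 arrays and 8.23, 8.49 and 8.48 on the E14 arrays. Its groups did not overlap, and the rise of 0.72 ± 0.16 (SE, adjusted p = 0.0227) lost its call without E10 replicate 3 or E14 replicate 1, 2 or 3 (adjusted p = 0.0518 to 0.121) and in the fit with the replicate number as a block (0.72, adjusted p = 0.0560).

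MAGI2, a junction scaffold, rose by 0.43. The members that fell were PARD6G (-0.35) and PATJ (-0.32), both polarity complex proteins, and YBX3 (-0.37), a DNA-binding protein held at tight junctions. CLDN5, a claudin known from endothelial barriers among others, had a mean of 12.19 at E10 and 12.17 at E14. It differed by -0.016 ± 0.050 (SE, adjusted p = 0.916). CLDN20 differed by 0.24 ± 0.37 (SE, adjusted p = 0.798) and the scaffold TJP1 (ZO-1) by -0.078 ± 0.10 (SE, adjusted p = 0.759). CLDN5, CLDN20 and TJP1 were not called. Of 30 cadherins, catenins and desmosome genes 3 rose (10% against 7.00% of all genes) and 1 fell (3.33% against 5.32%). Under median centring 2 rose and 0 fell, without a variance trend 0 and 0, and with all probe sets averaged 2 and 0. CDH1 (E-cadherin) differed by -0.059 ± 0.12 (SE, adjusted p = 0.863) and CDH2 (N-cadherin) by -0.30 ± 0.12 (SE, adjusted p = 0.174). CDH3, P-cadherin, fell by 0.25 ± 0.054 (SE, adjusted p = 0.0187), a value that was 0.083 under median centring and that lost its call without E10 replicate 3 or E14 replicate 1 or 3 (adjusted p = 0.0730 to 0.0924). CDH20 (1.11), CDH13 (1.04) and CDH4 (0.38), further cadherins, rose. CDH20 was not called without E14 replicate 1, 2 or 3 (adjusted p = 0.0718 to 0.0978), nor CDH13 without E10 replicate 2 or E14 replicate 1, 2 or 3 (adjusted p = 0.0611 to 0.0816).

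Apical membrane and microvilli genes were split, with 3 of 24 rising (12.5% against 7.00% of all genes) and 2 falling (8.33% against 5.32%). Under median centring 2 rose and 0 fell, without a variance trend 1 and 1, and with all probe sets averaged 2 and 3. ESPN, espin, which bundles actin in microvilli and stereocilia, read 10.42, 10.89 and 11.02 on the E10 arrays and 12.72, 12.79 and 12.84 on the E14 arrays. The arrays of both ages were well apart, and ESPN rose by 2.01 ± 0.13 (SE), or 4.02-fold (adjusted p = 8.79e-06). PLS1, the actin bundler plastin 1, rose by 1.16 ± 0.23 (SE, adjusted p = 0.0125), with no call without E14 replicate 1 or 2 (adjusted p = 0.0525 to 0.0889). EZR, ezrin, which ties actin to the apical membrane, rose by 0.66 ± 0.15 (SE, adjusted p = 0.0231). The tropomyosins TPM1 (-0.67) and TPM3 (-0.70), actin-coating proteins, fell. The count of rising genes was 1 without E14 replicate 1 or 2.

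Of 35 genes of phagocytosis and the lysosome, 10 rose (28.6% against 7.00% of all genes) and 2 fell (5.71% against 5.32%). Their median was 0.10. Under median centring 2 rose and 0 fell, without a variance trend 1 and 0, and with all probe sets averaged 7 and 2. SCARB1, a scavenger receptor that takes up high-density lipoprotein and carotenoids, read 10.64, 10.79 and 10.90 on the E10 arrays and 13.34, 13.31 and 13.38 on the E14 arrays. It was higher on every E14 array, by 2.57 ± 0.068 (SE), or 5.94-fold (adjusted p = 2.36e-08). MFGE8, a bridge between dying membranes and the integrins of the engulfing cell, read 11.92, 12.15 and 11.94 on the E10 arrays and 12.74, 12.69 and 12.80 on the E14 arrays. The groups were apart, and MFGE8 rose by 0.74 ± 0.068 (SE, adjusted p = 1.07e-04). CD36, a receptor for photoreceptor outer segments in mammals, rose by 0.98 ± 0.23 (SE, adjusted p = 0.0244). The others that rose were the cathepsins CTSD (0.40), CTSB (0.41), CTSS (0.52) and CTSZ (0.22), the lysosomal cholesterol carrier NPC2 (0.46), the acid lipase LIPA (0.27) and the proton pump subunit ATP6V1A (0.21). LAMP1 (-0.36) and PPT1 (-0.22), a lysosomal membrane protein and a thioesterase, fell. The rising genes numbered 5 to 6 without E10 replicate 3 or E14 replicate 1 or 3. CTSS is also a leukocyte marker, and its call ended without E10 replicate 2 or E14 replicate 1 or 3 (adjusted p = 0.0577 to 0.0999).

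Transcripts of a set of named carriers changed. In the list of nutrient and metabolite transport genes, 13 of 48 members rose (27.1% against 7.00% of all genes). Of these 48, 3 fell (6.25% against 5.32%), and the median was 0.083. Under median centring 7 rose and 2 fell, and without a variance trend 6 and 2. With the mean of all probe sets of a gene, 7 rose and 5 fell. TFRC, the transferrin receptor that takes up iron, read 11.13, 11.02 and 10.95 on the E10 arrays and 12.17, 12.15 and 12.14 on the E14 arrays. Each E14 array was higher, and the rise was 1.12 ± 0.060 (SE), or 2.17-fold (adjusted p = 3.45e-06). SLC6A9, a glycine carrier, read 11.04, 11.02 and 10.99 on the E10 arrays and 12.30, 12.04 and 12.03 on the E14 arrays. It rose by 1.10 ± 0.075 (SE, adjusted p = 1.53e-05), with the ages apart on every array. The others that rose were the hexose carrier SLC2A11 (1.40), the taurine carrier SLC6A6 (0.94), the carboxylate carriers SLC13A3 (0.89) and SLC13A5 (0.42), the cationic amino acid carriers SLC7A1 (0.79) and SLC7A3 (0.53), the betaine carrier SLC6A12 (0.71), the thyroid hormone carrier SLCO1C1 (0.44), ferritin heavy chain FTH1 (0.34), transferrin TF (0.24) and SLC2A1. SLC2A1, the main glucose carrier of the barrier, read 14.42, 14.20 and 14.23 on the E10 arrays and 14.64, 14.50 and 14.62 on the E14 arrays. All E14 arrays were above the E10 arrays, but by 0.30 ± 0.065 (SE, adjusted p = 0.0175), and the call ended without E10 replicate 2 or 3 or E14 replicate 1 or 3 (adjusted p = 0.0678 to 0.0907). The genes that fell were ABCA1, the cholesterol exporter (-1.37), the folate receptor FOLR1 (-1.07) and the zinc exporter SLC30A1 (-0.24).

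Ion and water transport had 7 rising (17.9% against 7.00% of all genes) and 2 falling genes (5.13% against 5.32%) of 39. The median was -0.039. Under median centring 3 rose and 0 fell, without a variance trend 1 and 0, and with all probe sets averaged 3 and 3. CA14, a membrane carbonic anhydrase, read 8.08, 6.59 and 7.07 on the E10 arrays and 9.20, 8.83 and 9.31 on the E14 arrays. The ages did not overlap, and it rose by 1.87 ± 0.32 (SE), or 3.65-fold (adjusted p = 0.00551). CLCN2, a chloride channel, rose by 1.27 ± 0.19 (SE, adjusted p = 0.00209) and ATP1B1, a sodium pump subunit, by 0.46 ± 0.050 (SE, adjusted p = 3.42e-04). CLCN5 (0.52), the bicarbonate carriers SLC4A7 (0.51) and SLC4A2 (0.32), and the calcium pump ATP2B2 (0.25) rose as well. SLC12A2, the sodium, potassium and chloride cotransporter, fell by 0.36 ± 0.058 (SE, adjusted p = 0.00365), and the calcium pump ATP2B1 fell by 0.72. Rising genes numbered 4 without E14 replicate 1 or 2.

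Genes of energy metabolism rose by small steps in the respiratory chain and by a larger step in LDHA. Of 64 subunits of oxidative phosphorylation 21 rose and none fell in limma's test (37 higher and 2 lower at an unadjusted p under 0.05). The median was 0.17. The rising share was 32.8% against 7.00% of all genes, and the falling share 0% against 5.32%. The rises ran from 0.21 (ATP5H) to 0.46 (NDUFS7), and the rising subunits belong to complexes I to V of the respiratory chain. ATP5G1, a ring subunit of ATP synthase, read 12.75, 12.92 and 12.98 on the E10 arrays and 13.32, 13.36 and 13.36 on the E14 arrays. The ages did not overlap, and it rose by 0.46 ± 0.061 (SE, adjusted p = 0.00104). SDHD, a subunit of complex II, rose by 0.37 ± 0.050 (SE, adjusted p = 0.00113), UQCRQ of complex III by 0.34 ± 0.051 (SE, adjusted p = 0.00267) and COX7C of complex IV by 0.28 ± 0.048 (SE, adjusted p = 0.00515). On the deposited scale 18 rose, in the fit without a variance trend none did, and under median centring none was called although the list median was 0.47. With the mean of all probe sets of a gene, 16 rose and 2 fell. The count was 10 to 11 without E14 replicate 1 or 2.

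In the glycolysis and lactate list of 31 genes, 7 rose (22.6% against 7.00% of all genes) and 1 fell (3.23% against 5.32%). The list median was 0.18. Under median centring 2 rose and 0 fell, without a variance trend 1 and 0, and with all probe sets averaged 9 and 2. LDHA, lactate dehydrogenase A, which interconverts pyruvate and lactate, read 8.57, 9.12 and 8.82 on the E10 arrays and 10.90, 10.78 and 10.71 on the E14 arrays. Every E14 array was higher, by 1.96 ± 0.13 (SE), or 3.89-fold (adjusted p = 1.26e-05). The mitochondrial creatine kinase CKMT1B (1.78) and the cytosolic CKB (0.48), PFKL of phosphofructokinase (0.47), the pyruvate dehydrogenase kinase PDK3 (0.40), the pyruvate carrier MPC2 (0.40) and PGAM1 (0.27) rose, and PFKFB1 fell (-0.34). Of 61 cytosolic ribosomal proteins none rose and 9 fell in limma's test (0 higher and 27 lower at an unadjusted p under 0.05), among them RPL10A (-0.42 ± 0.048 SE, adjusted p = 4.48e-04) and RPL35A (-0.35 ± 0.047 SE, adjusted p = 0.00120). Their list median of -0.084 turned to 0.16 under median centring, and no member was called on that scale or on the deposited scale. The 9 falling ribosomal genes were 14.8% of the list, against 5.32% of all genes. The ribosomal count was 4 to 5 without E10 replicate 3 or E14 replicate 1, 2 or 3, and 17 with all probe sets averaged.

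Of 50 oxidative stress defence and metal handling genes 18 rose and 2 fell (5 and 0 under median centring, 4 and 1 without a variance trend). Their median was 0.22, and in the fit of all 14 arrays 7 rose. The rising share was 36% against 7.00% of all genes, and the falling share 4% against 5.32%. With all probe sets averaged 16 rose and 2 fell. HMOX1, heme oxygenase 1, which breaks down heme and is induced by oxidants, read 7.96, 7.64 and 7.86 on the E10 arrays and 10.996, 11.02 and 10.98 on the E14 arrays. The gap between ages was several times the range within them, and HMOX1 rose by 3.18 ± 0.10 (SE), or 9.04-fold (adjusted p = 1.40e-07). SQSTM1, the autophagy receptor p62, read 9.41, 9.10 and 9.66 on the E10 arrays and 11.54, 11.31 and 11.48 on the E14 arrays. It was higher on every E14 array, by 2.06 ± 0.13 (SE), or 4.16-fold (adjusted p = 7.98e-06). SOD3, the extracellular superoxide dismutase, rose by 1.59 ± 0.16 (SE, adjusted p = 1.58e-04). NQO1 (0.52), GCLM (0.35) and TXNRD3 (0.27), enzymes of quinone and glutathione or thioredoxin metabolism, rose, and so did NFE2L2 (0.22), the factor that drives many antioxidant genes. CP, ceruloplasmin, a copper-carrying ferroxidase, read 12.94, 13.03 and 12.99 on the E10 arrays and 11.75, 11.80 and 11.70 on the E14 arrays. Every E14 array was lower, and it fell by 1.23 ± 0.052 (SE, 2.35-fold, adjusted p = 5.43e-07). The rising genes were 10 without E14 replicate 1.

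Of 16 erythrocyte markers HBA1 and HBAD rose and the other members were not called. HBA1, the alpha-A globin, read 8.20, 8.49 and 8.78 on the E10 arrays and 13.14, 13.13 and 13.06 on the E14 arrays, and HBAD, the alpha-D globin, read 8.04, 8.71 and 8.47 on the E10 arrays and 11.60, 11.48 and 11.61 on the E14 arrays. Both were much higher on all E14 arrays, HBA1 by 4.62 ± 0.12 (SE), or 24.6-fold (adjusted p = 2.36e-08) and HBAD by 3.16 ± 0.14 (SE), or 8.91-fold (adjusted p = 9.38e-07). These were 2 of 16 markers (12.5% against 7.00% of all genes). The summed signal of the list was 2162 to 2443 at E10 and 13602 to 14423 at E14, and SLC4A1, the erythrocyte anion exchanger, was dim at both ages (0.028, adjusted p = 0.988). The part of erythrocytes in the rise of HMOX1, TFRC and FTH1 was not tested. Both globin calls ended in the fit of all 14 arrays (adjusted p = 0.0646 for HBA1 and 0.178 for HBAD).

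Many enzymes of sterol synthesis rose. Of 53 genes of sterol synthesis and lipid handling 20 rose and 3 fell (14 and 0 under median centring, 6 and 0 without a variance trend). Their median was 0.15. The rising share was 37.7% against 7.00% of all genes, and the falling share 5.66% against 5.32%. With all probe sets averaged 15 rose and 2 fell. SQLE, squalene epoxidase, read 10.44, 10.40 and 10.47 on the E10 arrays and 11.21, 11.36 and 11.38 on the E14 arrays. The ages did not overlap, and SQLE rose by 0.88 ± 0.067 (SE, adjusted p = 3.29e-05). HMGCS1, the synthase before the rate-limiting reductase, rose by 1.08 ± 0.12 (SE, adjusted p = 4.06e-04), MSMO1, a sterol demethylase, by 0.75 ± 0.054 (SE, adjusted p = 2.09e-05), and the regulators INSIG1 by 0.84 and SREBF2 by 0.38. The enzymes NSDHL (0.92), HSD17B7 (0.75), DHCR7 (0.75), FDPS (0.71), ACAT2 (0.62), SC5D (0.61) and FDFT1 (0.59) of the same pathway rose too. In lipid handling PLIN2, the coat protein of lipid droplets, read 10.98, 10.97 and 10.90 on the E10 arrays and 11.89, 12.08 and 12.05 on the E14 arrays. It rose on all arrays, by 1.05 ± 0.065 (SE), or 2.07-fold (adjusted p = 7.98e-06), and ACSL3, which activates fatty acids, by 0.80 ± 0.079 (SE, adjusted p = 1.69e-04). ELOVL1, ELOVL2, ELOVL5 and FADS2, which lengthen and desaturate fatty acids, STARD4, a cholesterol carrier, and CPT2, of mitochondrial fatty acid import, rose by 0.29 to 0.84. LPL (-0.44), FABP5 (-0.39) and LIPG (-0.20), a lipase, a fatty acid binder and a second lipase, fell.

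Many basement membrane genes fell: 14 of 37 fell (37.8% against 5.32% of all genes) and 1 rose (2.70% against 7.00%), with a median of -0.27. Without a variance trend 3 fell. With all probe sets averaged 9 fell and 2 rose, and the median was -0.19. FBLN1, fibulin 1, a matrix glycoprotein, read 13.16, 13.19 and 13.16 on the E10 arrays and 11.79, 11.78 and 11.68 on the E14 arrays. All E14 arrays were lower, and it fell by 1.42 ± 0.051 (SE, 2.68-fold, adjusted p = 2.25e-07). The collagen IV chains COL4A1 (-0.91), COL4A2 (-0.68), COL4A5 (-0.63) and COL4A6 (-0.67), which form the network of the membrane, fell. So did the laminins LAMA3 (-1.09), LAMA2 (-0.80), LAMB1 (-0.80) and LAMA1 (-0.36), the integrin chain ITGB1 (-0.50), EFEMP1 (-0.42), SPARC (-0.33), agrin AGRN (-0.27) and COL18A1 (-0.20). The laminin chain LAMA5 rose (0.47 ± 0.10 SE, adjusted p = 0.0140), and rising members numbered 0 to 2 without E10 replicate 1, 2 or 3 or E14 replicate 1 or 2. COL4A2 read 12.87, 13.01 and 12.92 on the E10 arrays and 12.16, 12.35 and 12.27 on the E14 arrays, and no E14 array reached the E10 arrays. Under median centring 2 members of the list fell and the median was -0.059.

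Stromal, elastic and cartilage matrix genes went both ways. Of 62, 9 rose (14.5% against 7.00% of all genes) and 10 fell (16.1% against 5.32%). Under median centring 6 rose and 3 fell, without a variance trend 4 and 5, and with all probe sets averaged 5 and 10. FN1, fibronectin, read 13.27, 13.38 and 13.35 on the E10 arrays and 11.94, 11.96 and 11.98 on the E14 arrays. Every E14 array was lower, and it fell by 1.37 ± 0.050 (SE, 2.59-fold, adjusted p = 2.25e-07). ELN, elastin, read 11.89, 12.03 and 11.85 on the E10 arrays and 10.82, 10.77 and 10.80 on the E14 arrays. The ages were apart, and it fell by 1.13 ± 0.063 (SE, 2.19-fold, adjusted p = 4.03e-06). COL1A2 (-0.99), COL5A2 (-0.74), COL11A1 (-0.72) and COL2A1 (-0.62), fibrillar collagen chains, the cross-linking enzymes LOX (-1.01) and LOXL1 (-0.34), the cartilage protein LECT1 (-0.78) and the elastic fibre protein EMILIN3 (-1.73) also fell. MATN2, matrilin 2, read 7.18, 7.29 and 7.43 on the E10 arrays and 9.38, 9.43 and 9.45 on the E14 arrays. It was higher at E14 by 2.12 ± 0.14 (SE), or 4.35-fold (adjusted p = 1.16e-05) with no overlap, and HAPLN1, a hyaluronan link protein, by 1.85 ± 0.15 (SE, adjusted p = 4.04e-05). COL6A1 (1.501) and COL6A2 (1.68), which form beaded filaments, MFAP2 (0.51) and COL9A3 (0.26) rose, as did POSTN, TNC and COL10A1, which were dim at E10 or at both ages, so that the size of their change depends on the pseudocount.

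Of 84 DNA replication and cell division genes 6 fell (7.14% against 5.32% of all genes) and none rose, with a median of 0.040 in limma's test (4 higher and 8 lower at an unadjusted p under 0.05). Under median centring 2 fell, without a variance trend 3, in the fit of all 14 arrays 2, and with all probe sets averaged 6. The falling genes numbered 4 without E10 replicate 2 or 3 or E14 replicate 1, 2 or 3. HELLS, a chromatin remodeller of replicating cells, read 12.05, 12.03 and 12.07 on the E10 arrays and 10.86, 10.91 and 10.81 on the E14 arrays. The E14 arrays were lower without overlap, and it fell by 1.19 ± 0.055 (SE, 2.29-fold, adjusted p = 9.53e-07). KIF15, a spindle kinesin (-1.55 ± 0.16 SE, adjusted p = 1.89e-04), STMN1, which destabilizes microtubules (-0.76 ± 0.059 SE, adjusted p = 3.52e-05), HMGB2 (-0.79), TYMS, thymidylate synthase (-0.82), and the checkpoint protein BUB3 also fell. BUB3 differed by -0.29 and turned to 0.025, not called, under median centring. TOP2A, topoisomerase II alpha, read 7.72, 7.998 and 7.40 on the E10 arrays and 7.36, 7.17 and 7.26 on the E14 arrays. All E14 arrays lay below the E10 arrays, but the difference of -0.44 ± 0.24 (SE, adjusted p = 0.362) was not called.

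Of 61 secreted growth factors and their modulators 8 rose (13.1% against 7.00% of all genes) and 7 fell (11.5% against 5.32%). Under median centring 7 rose and 2 fell, without a variance trend 2 and 2, and with all probe sets averaged 9 and 5. MDK, midkine, a heparin-binding growth factor, read 9.41, 9.61 and 9.60 on the E10 arrays and 8.44, 8.20 and 8.11 on the E14 arrays. The ages were far apart, and it fell by 1.29 ± 0.13 (SE, 2.45-fold, adjusted p = 1.66e-04). CCN3, a matricellular protein, read 12.39, 12.44 and 12.39 on the E10 arrays and 10.63, 10.43 and 10.59 on the E14 arrays. The gap was wide, and it fell by 1.86 ± 0.065 (SE, 3.62-fold, adjusted p = 2.25e-07). CYR61, a matricellular relative of CCN3 (-0.46), BMP4 (-0.42), PDGFA (-0.52), CHRDL1 (-0.65) and the hedgehog receptor PTCH1 (-0.71) fell. IGFBP2, which binds insulin-like growth factors, rose by 0.71 ± 0.056 (SE, adjusted p = 4.05e-05). SERPINF1, pigment epithelium-derived factor, read 11.22, 11.12 and 11.27 on the E10 arrays and 11.77, 11.77 and 11.66 on the E14 arrays. It rose on every E14 array, by 0.53 ± 0.063 (SE, adjusted p = 5.04e-04). PTN, the relative of MDK, differed in the other direction from it (0.73), and INHBB (1.14), EGF (0.77) and CNTF (0.75) rose. FGF12 (0.79), a family member that stays inside the cell, rose as well and is counted in this list. The rising genes were 4 without E14 replicate 1 or 2.

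In the Wnt list, 48 genes, 3 rose (6.25% against 7.00% of all genes) and 5 fell (10.4% against 5.32%). Under median centring 2 rose and 1 fell, without a variance trend 1 and 2, and with all probe sets averaged 3 and 4. Falling genes numbered 2 to 3 without E10 replicate 1, 2 or 3 or E14 replicate 1, 2 or 3. WIF1, a secreted Wnt inhibitor, read 6.19, 6.26 and 6.64 on the E10 arrays and 8.32, 8.08 and 8.10 on the E14 arrays. It rose without overlap by 1.80 ± 0.26 (SE), or 3.48-fold (adjusted p = 0.00169). RSPO3, a secreted amplifier of Wnt signals, read 9.03, 9.38 and 9.53 on the E10 arrays and 7.83, 7.56 and 7.14 on the E14 arrays. The arrays did not overlap, and it fell by 1.81 ± 0.20 (SE, adjusted p = 3.76e-04). WNT9A (0.57) and the receptor FZD5 (1.05) rose, and FZD6 (-0.62), the transcription factor LEF1 (-0.57), WNT16 (-1.05) and APCDD1, dim at E14, fell. Axon guidance genes had 5 rising (11.9% against 7.00% of all genes) and 8 falling members (19.0% against 5.32%) of 42. Under median centring 3 rose and 0 fell, without a variance trend 3 and 0, and with all probe sets averaged 3 and 6. SEMA5A (1.31 ± 0.18 SE, adjusted p = 0.00153) and SEMA5B (0.73 ± 0.055 SE, adjusted p = 2.93e-05), semaphorins that repel or attract growing axons, rose, with SEMA6D (0.38), the receptor EPHA3 (0.50) and NTN4, which was dim at both ages. SLIT3, a repellent ligand (-0.84 ± 0.088 SE, adjusted p = 2.43e-04), NRP1, a semaphorin receptor (-0.62 ± 0.088 SE, adjusted p = 0.00159), SLIT2 (-0.53), SEMA3D (-0.88), UNC5C (-1.02), EPHA7 (-0.50), EFNB1 (-0.72) and EFNA5 (-0.73) fell.

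Of 31 immediate-early and feedback genes 8 rose (25.8% against 7.00% of all genes) and 4 fell (12.9% against 5.32%). Under median centring 4 rose and 0 fell, without a variance trend 2 and 2, and with all probe sets averaged 9 and 4. SOCS3, a feedback inhibitor of cytokine signalling, read 11.75, 11.93 and 11.84 on the E10 arrays and 13.42, 13.38 and 13.35 on the E14 arrays. It rose on every array, by 1.54 ± 0.058 (SE), or 2.91-fold (adjusted p = 2.31e-07). BTG2, an antiproliferative factor, rose by 1.13 ± 0.067 (SE, adjusted p = 5.87e-06). GADD45G (0.80), KLF6 (0.68), BTG1 (0.38), JUN (0.37) and DUSP1 (0.23) rose. EGR1, a growth factor-induced zinc finger factor, rose by 0.46 ± 0.12 (SE, adjusted p = 0.0372), and its call ended without E10 replicate 2 or 3 or E14 replicate 1, 2 or 3 (adjusted p = 0.0596 to 0.131), with a difference of 0.30 without E10 replicate 2. DUSP6, a phosphatase that switches off the kinase ERK, read 12.93, 12.91 and 12.84 on the E10 arrays and 12.20, 12.09 and 12.03 on the E14 arrays. All E14 arrays were lower, and it fell by 0.79 ± 0.058 (SE, adjusted p = 2.50e-05), together with DUSP4 (-0.87), MYCN (-0.84) and CYR61. Of 22 clock and melatonin genes 4 rose and none fell in limma's test (10 higher and 1 lower at an unadjusted p under 0.05): HLF (0.80 ± 0.046 SE, adjusted p = 5.26e-06), BHLHE40 (0.79, with the dimmer probe set above called lower), NFIL3 (0.50) and NR1D2, a call that ended without E10 replicate 1 or 2 or E14 replicate 1, 2 or 3 (adjusted p = 0.0648 to 0.144). Under median centring 2 clock genes rose, without a variance trend 1, and with all probe sets averaged 3. The 4 rising clock genes were 18.2% of their list, against 7.00% of all genes. The hour at which eyes were taken is not given in the labels.

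The list of endoplasmic reticulum chaperones and stress response genes had 33 measured members. Of these, 3 rose (9.09% against 7.00% of all genes) and 4 fell (12.1% against 5.32%). None was called under median centring or without a variance trend, and with all probe sets averaged 2 rose and 6 fell. HSPA5, the chaperone BiP, fell by 0.35 ± 0.073 (SE, adjusted p = 0.0161) and PDIA6, a disulfide isomerase, fell by 0.39 ± 0.067 (SE, adjusted p = 0.00546), with the HSPA5 call lost without E14 replicate 1, 2 or 3 (adjusted p = 0.0550 to 0.0747). HSP90B1 differed by -0.24, lost its call without E14 replicate 1 or 2 (adjusted p = 0.0550 to 0.0593), and turned to 0.071, not called, under median centring. HSP90AA1 fell (-0.21), and HSPA2 (0.36), ATF4 (0.23) and the collagen chaperone SERPINH1 (0.22) rose. Rising members were 1 without E10 replicate 1 or 3 or E14 replicate 1, 2 or 3, and falling members 1 without E14 replicate 1 or 2. Of 24 genes of antigen presentation and interferon response 3 rose (12.5% against 7.00% of all genes). B2M, the light chain of class I molecules, read 10.44, 10.80 and 10.57 on the E10 arrays and 12.04, 11.93 and 11.69 on the E14 arrays. The ages were apart, and it rose by 1.28 ± 0.11 (SE), or 2.43-fold (adjusted p = 6.15e-05). IRF1, an interferon-induced factor (1.44 ± 0.30 SE, adjusted p = 0.0137), and the class I heavy chain BF2 (0.75 ± 0.18 SE, adjusted p = 0.0291) lost their calls without E14 replicate 1, 2 or 3 (adjusted p = 0.0608 to 0.0745) and without E10 replicate 3 or E14 replicate 1, 2 or 3 (adjusted p = 0.0652 to 0.120). The summed signal of the list was 4756 to 5246 at E10 and 7929 to 8639 at E14.

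Markers of neighbouring cells were set against these changes. Of 31 photoreceptor markers 4 rose (12.9% against 7.00% of all genes) and 1 fell (3.23% against 5.32%). Under median centring 4 rose and 0 fell, without a variance trend 2 and 0, and with all probe sets averaged 3 and 1. The summed signal of these markers was 5966 to 5988 at E10 and 5553 to 5738 at E14. PROM1 was the brightest of them, and without it the sum was 1979 to 2153 at E10 and 2948 to 3239.6 at E14. PDE6G, a subunit of the photoreceptor phosphodiesterase, read 7.23, 7.46 and 7.34 on the E10 arrays and 8.56, 8.64 and 8.81 on the E14 arrays. It rose by 1.33 ± 0.17 (SE, adjusted p = 8.33e-04) without overlap. TULP1 (1.21), GNAT2 (1.80, dim at E10) and RXRG (1.82) rose and PROM1 fell (-0.62 ± 0.052 SE, adjusted p = 6.41e-05), while the opsin OPN1LW (-0.029, adjusted p = 0.985) and the arrestin ARR3 (0.11, adjusted p = 0.931) were not called and CNGA1, CNGA3 and PRPH2 were dim at both ages. Rising markers numbered 1 to 2 without E14 replicate 1, 2 or 3, GNAT2 lost its call without E14 replicate 1, 2 or 3 (adjusted p = 0.0508 to 0.0648) and TULP1 without E14 replicate 2 (adjusted p = 0.0648).

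Among 36 markers of other retinal neurons and glia, 5 rose (13.9% against 7.00% of all genes) and 2 fell (5.56% against 5.32%). Under median centring 3 rose and 0 fell, without a variance trend 3 and 0, and with all probe sets averaged 6 and 2. STMN2, a neuronal microtubule regulator (1.63 ± 0.18 SE, adjusted p = 3.38e-04), PROX1, a horizontal cell factor (1.56 ± 0.13 SE, adjusted p = 6.44e-05), MAP2 (1.14), CALB2 (0.28) and NEFL, dim at E10, rose, and ELAVL4 (-0.92) and TUBB3 (-0.67) fell. Rising neuronal markers were 3 without E14 replicate 1 or 3. Of 27 leukocyte markers LAPTM5 (2.13 ± 0.25 SE, adjusted p = 5.38e-04) and CTSS rose, with 1 without E14 replicate 1 or 3, while the leukocyte surface gene PTPRC was dim at both ages. Of 26 endothelial markers PECAM1 fell (-0.74 ± 0.15 SE, adjusted p = 0.0136), a call that ended without E10 replicate 2 or E14 replicate 2 (adjusted p = 0.0501 to 0.0604), and CDH5 and KDR were dim at both ages. None of 30 muscle markers was called by limma (1 at an unadjusted p under 0.05, lower), 1 of 16 lens markers rose (CRYBB2, 1.16 ± 0.17 SE, adjusted p = 0.00184), and of 14 neural crest and melanocyte markers SOX10 rose (0.38) and EDNRB fell (-0.63). No neural crest or endothelial marker was called under median centring or without a variance trend. In the fit of all 14 arrays 1 neural crest marker rose and none fell. The summed signals at E10 and at E14 were 44838 to 45695 and 45884 to 46757 for neurons, 8282 to 10349.5 and 9883 to 10905 for leukocytes, 2179.8 to 2440.5 and 1882 to 2819 for endothelium, 4020.3 to 4300.4 and 3702 to 4122 for muscle, 1597 to 2084 and 2037 to 2194 for lens, and 10154 to 11564 and 9057 to 9438 for neural crest. Without the brightest member the sum was 2344 to 2432 at E10 and 3049 to 3215 at E14 for leukocytes (CSF1R left out). For neural crest (EDNRB left out) it was 4013 to 4438 at E10 and 4935 to 5119 at E14. For retinal neurons and glia (SFRP1 left out) it was 19581 to 20676 at E10 and 20723 to 21351 at E14. Rising shares were 7.41% for leukocyte, 6.25% for lens and 7.14% for neural crest markers, against 7.00% of all genes. Falling shares were 3.85% for endothelial and 7.14% for neural crest markers, against 5.32%. The part of these cells in the results was not tested.

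By size, the genes at the top of the comparison joined several of these groups. The 15 largest rises, among genes with a mean log2 signal of at least 8 at the higher age and no overlap, were led by HBA1, CLU, CXCL14, STRA6 and HMOX1. CLU, clusterin, a secreted chaperone, read 4.67, 5.43 and 5.62 on the E10 arrays and 9.16, 9.10 and 9.09 on the E14 arrays. It was dim at E10 and bright on every E14 array, and the rise was 3.88 ± 0.31 (SE), or 14.7-fold (adjusted p = 4.09e-05). CXCL14, a chemokine, read 5.80, 5.15 and 5.45 on the E10 arrays and 8.82, 8.78 and 9.01 on the E14 arrays. Its E10 arrays were dim and its E14 arrays close together, a rise of 3.40 ± 0.28 (SE), or 10.5-fold (adjusted p = 5.04e-05). OSGIN1, a gene induced by oxidative stress, read 7.63, 7.84 and 7.58 on the E10 arrays and 10.68, 10.74 and 10.65 on the E14 arrays. It rose without overlap by 3.00 ± 0.11 (SE), or 8.03-fold (adjusted p = 2.25e-07).

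The other large rises were C10H15ORF48 (2.89), the actin regulator ABI3 (2.86), FAM222A (2.83), the heparan sulfate sulfotransferase HS3ST2 (2.56), FAM135B (2.39), the follistatin-like gene FSTL5 (2.30), HBAD, SCARB1 and RPE65. With a pseudocount of 64, the rise was 1.90 for ABI3 and 1.86 for FAM222A, both dim at E10. GALNT7, a glycosyltransferase of O-linked sugar chains, had the largest fall and read 11.41, 11.27 and 11.44 on the E10 arrays and 7.76, 7.94 and 7.75 on the E14 arrays. Its 3 E14 arrays lay together far below E10, and it fell by 3.55 ± 0.095 (SE, 11.7-fold, adjusted p = 2.36e-08). SPON2, a matrix spondin (-2.18), CPZ, a carboxypeptidase that binds Wnt proteins (-1.91), MDM2, the ubiquitin ligase of p53 (-1.78), the RNA-binding protein KHDRBS2 (-1.70), CPO (-1.68), CMTM8 (-1.59), the MHC-linked BG8 (-1.51), ANKS1B (-1.46), the adaptor DOK5 (-1.44) and CFAP69 (-1.85) fell, beside CCN3, RSPO3, EMILIN3 and KIF15. CFAP69 lost its call without E10 replicate 1, 2 or 3 or E14 replicate 1 (adjusted p = 0.0602 to 0.106) and ANKS1B without E10 replicate 3 (adjusted p = 0.0527). Among their probe sets, 1 of 10 was called lower for BG8, 1 of 6 for ANKS1B and for CFAP69, and 1 of 4 for MDM2. For RSPO3 it was 1 of 3, for EMILIN3, CCN3 and DOK5 1 of 2, for KIF15 2 of 5 and for KHDRBS2 2 of 3. All probe sets of GALNT7, CPZ and SPON2 were called lower. No probe set of these falling genes was called higher.

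**Figure D3:**
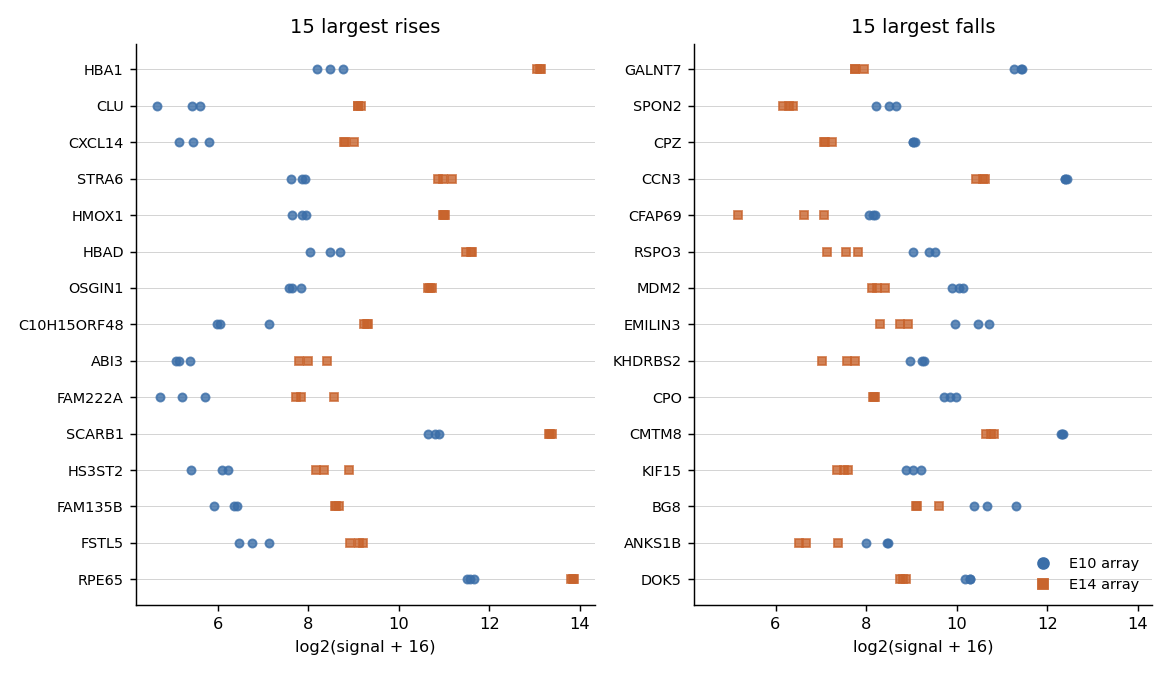
Each row is a gene and each point an array (blue circles E10, orange squares E14), with log2(signal + 16) on the x axis, for the 15 largest rises (left) and the 15 largest falls (right) chosen by the stated rule. The rule admits only genes whose E10 and E14 arrays do not overlap, and the difference of the means is largest for HBA1 (4.62) on the left and GALNT7 (-3.55) on the right.

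Whether the step from E10 to E14 differed from the steps before and after it was tested in 1 fit of all 14 arrays. The first interval, E7 to E10, spans 3 days and shares the E10 arrays, and the last, E14 to E18, spans 4 days and shares the E14 arrays, so the values below are each interval's own. All E10 and E14 arrays are of 1 session, while 5 of the E7 and E18 arrays have no session file. A session effect may therefore be mixed with the first and last steps, and its part was not tested. The E14 against E10 change differed from the first interval for 737 probe sets (1.92%) and from the last for 465 (1.21%). Without E10 replicate 1, 2 or 3 the first count was 296, 320 and 303, and without E14 replicate 1, 2 or 3 it was 453, 463 and 449. The second was 130, 124 and 128 without E14 replicate 1, 2 or 3, and 301 and 289 without E10 replicate 2 or 3. The genes below are called for E14 against E10 and have the smallest adjusted p in the test of the difference.

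Against the first interval, SCARB1 had a mean of 10.47 ± 0.080 (SD, n = 4) at E7, 10.76 ± 0.13 (SD, n = 3) at E10, 13.35 ± 0.040 (SD, n = 3) at E14 and 15.03 ± 0.047 (SD, n = 4) at E18. It was nearly level before E10 (0.29) and went up by 2.59 in the middle interval, a difference of 2.30 ± 0.13 (SE, adjusted p = 1.84e-07). STRA6 fell by 0.95 before E10, then went up by 3.20 and by 3.25 after E14, and the first step differed by 4.15 ± 0.29 (SE, adjusted p = 9.73e-07). TFRC reversed from -1.95 to 1.13, a difference of 3.08 ± 0.19 (SE, adjusted p = 2.40e-07). In the 9 session arrays the differences were 2.32 for SCARB1, 4.29 for STRA6 and 2.79 for TFRC. CA10, a carbonic anhydrase-related protein, went from -2.36 to 1.14, the importin KPNA2 from -1.93 to 0.77, the ERK phosphatase DUSP5 from -0.31 to 1.01, PLBD1 from -0.66 to 0.82, and SOX10 from -1.23 to 0.37. Each of these went down and then up. EGR1 and SLC13A5 made most of their climb before E10, with 4.28 and 2.16 then and 0.48 and 0.42 in the middle interval, and EGR1 was not called for that interval in the 14-array fit (adjusted p = 0.192).

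Against the last interval, HMOX1, ZFAND2A and OSGIN1 had their highest mean at E14. HMOX1 had a mean of 7.82 ± 0.16 (SD, n = 3) at E10, 10.99 ± 0.021 (SD, n = 3) at E14 and 9.75 ± 0.62 (SD, n = 4) at E18. It rose by 3.17 and then fell by 1.24, a difference of 4.41 ± 0.47 (SE, adjusted p = 1.78e-04). In the 9 session arrays that difference was 3.88. ZFAND2A, a zinc finger protein induced by arsenite in mammals, went from 2.19 to -1.34 (3.53 ± 0.21 SE, adjusted p = 2.20e-07) and OSGIN1 from 2.99 to -1.95 (4.94 ± 0.55 SE, adjusted p = 2.40e-04). SOCS3 (1.56 then -0.65) and the endosomal protein NSG1 (0.68 then -2.01) also turned from up to down. SQSTM1 went from 2.07 to -0.18 and TTR from 2.15 to 0.36, so most of their climb after E10 was in the middle interval. CYP1B1 had its lowest mean at E14 (-1.01 then 1.33), and CYR61 dropped by 3.04 after E14 against -0.46 before it.

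**Figure D4:**
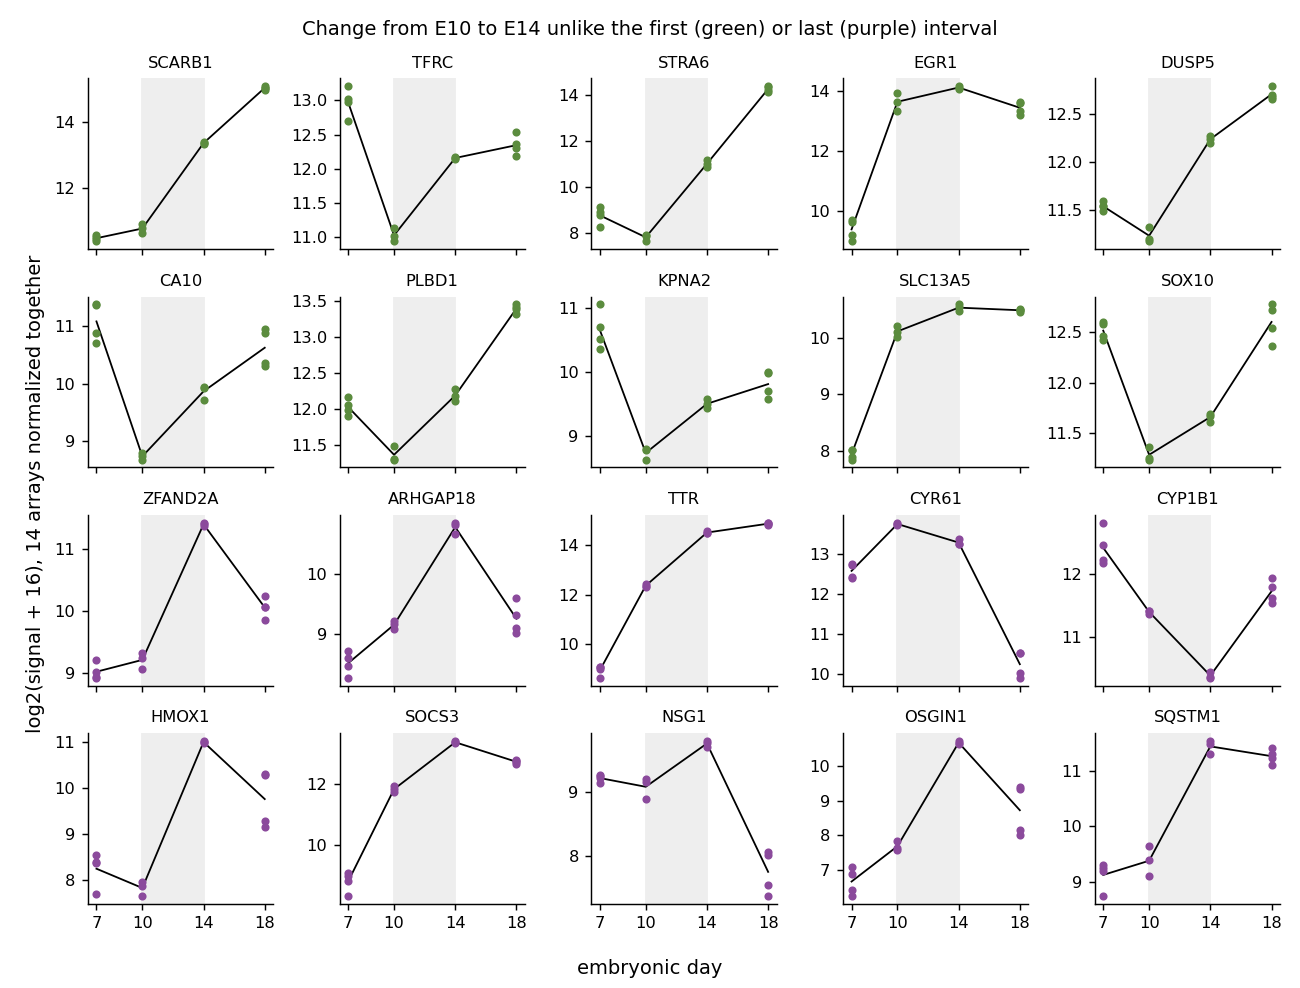
Each panel shows a gene at embryonic days 7, 10, 14 and 18 (x axis), with a point per array, a line through the means, log2(signal + 16) of the 14 arrays normalized together on the y axis, and the middle interval shaded. Green genes changed unlike the first interval, such as TFRC with its lowest mean at E10, and purple genes unlike the last, such as HMOX1, ZFAND2A and OSGIN1 with their highest mean at E14.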

How the data were processed

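The data are deposited intensities of retinal pigment epithelium RNA on 14 chicken arrays. Per the deposited value table, each of 38535 probe sets has 1 linear intensity per array, and the mean after trimming 2% at each end was 500.1 on every compared array, so the authors had scaled the arrays. The summarising software is not given in the sources used here. The authors also deposited 9 instrument files (unit: other), which list the settings of the fluidics and the scanner, and only the session and the station were read from them. The members and lists of this comparison, and the rule for named genes, were chosen with earlier results of these data known.

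Samples were grouped by age label. After 96 control probe sets were left out, log2(intensity + 16) of the 6 arrays was quantile normalized and fitted without a filter or covariates by limma version 3.58.1 under R 4.3.3, using lmFit and eBayes and letting the prior variance follow the mean signal. Benjamini-Hochberg adjustment of the 2-sided p-values covered 38439 probe sets, and a call is an adjusted value under 0.05. The 3 arrays per age limit the precision of all values, and an exact permutation test of 3 against 3 could not go below 0.1. Probe sets with 1 symbol in the platform annotation (27168) gave 13009 genes, each through its probe set with the highest mean signal, while 177 probe sets had several symbols and 11094 none. Calls of opposite sign occurred in 4 of the 351 genes that had several called probe sets, of which BHLHE40 is named in the text. A called gene can have probe sets without a call. Among the largest rises it was 2 of 3 called for HBA1, HBAD and OSGIN1, 1 of 3 for ABI3 and 1 of 2 for FAM135B. Further examples are TTR with 1 of 2, B2M and CDH13 with 1 of 3, and TPM3 and CDH20 with 1 of 4. NR1D2 had 1 of 5, CP 2 of 5, COL1A2 2 of 8 and SEMA5A 2 of 9. Of the probe sets with 1 symbol, 26853 had a gene identifier found in the RefSeq gene table.

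Genes were named by rule: the 15 largest rises and the 15 largest falls with arrays that do not overlap and a mean log2 signal of at least 8 at the higher age, up to 4 called members per list, a fixed set with RPE65, MITF, OCLN, claudins and cadherins, and 10 genes with 1 symbol per test of a difference between intervals, of which 1 is not reported here. Other list members are printed as complete lists of called members or were chosen after their values were seen. Those difference tests used all 14 arrays normalized together. Alternatives changed the scaling, pseudocount (1 and 64), filter, variance model, arrays, blocks and threshold. A fit of fluidics station 2 alone was added after the data were seen. Nothing in the labels says more of the replicates than that the preparations were independent. On simulated arrays of 38439 probe sets, 20 of 67 changes of 1.5-fold, 27 of 67 of 2-fold and 46 of 66 of 4-fold were found. There, 5 unchanged probe sets were called. Far fewer probe sets were changed in the simulation than the 2972 called in the data, so these shares need not hold for this comparison. Figures were drawn with matplotlib 3.10.9.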

Additional observations from a re-analysis of the deposited data

How the results depend on the processing

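The count of 2972 called probe sets was 823 under median centring, 539 without a variance trend, 1119 in the fit of all 14 arrays, 1545 at an adjusted p under 0.01, and 1802 to 2865 with each array left out in turn. It moved by less than 1.5 times on the deposited scale, with quantile normalization over 14 arrays, with pseudocounts of 1 and 64, without dim probe sets, with array weights, with the 9 arrays of the session and with blocks. The 609 probe sets with at least a 2-fold change became 361 with a pseudocount of 64, 382 without a trend, 402 in the fit of 14 arrays, 405 with the fluidics station as a block and 346 at an adjusted p under 0.01, with 412 to 577 when an array was left out. List genes called numbered 278, with 99 under median centring, 75 without a trend, 141 in the fit of 14 arrays, 184 at an adjusted p under 0.01, and 190 to 281 with an array left out. With the mean of all probe sets of a gene, 253 list genes were called. The difference from the first interval was called for 737 probe sets, for 125 under median centring, 1443 in the 9 session arrays alone and 296 to 942 with an array left out. For the last interval the counts were 465, 173, 1113 and 124 to 657. In the session fit E7 had 1 array, assumed to vary like the others. Under median centring HSP90B1 turned to 0.071, CDH3 to 0.083 and BUB3 to 0.025, none called. Of 157 named genes, 57 besides these 3 lost their call under median centring, and 71 did so without a trend. The number was 32 in the fit of 14 arrays, 13 on the deposited scale and 13 with the station as a block. In station 2 alone, a fit chosen after the data were seen, it was 10, with 2201 called probe sets. Only the scaling turned called directions in these fits, and the cause was not tested. LRAT became called without dim probe sets (1.49) and in the 9 session arrays (1.48). With the replicate number as a block 2487 probe sets were called and 1 named gene, OCLN, lost its call. Same-numbered arrays correlated by -0.024, -0.0061 and -0.092 in their deviations from the age means, and no E10 array correlated best with its own number. These 3 values show no pairing of the preparations by number, but they are too few to exclude one. The 3 arrays per age and the signal of dim probe sets limit these results, and the planned look at promoter motifs was not run.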

Other observations

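The genes of this paragraph lie outside the lists and were chosen after their values were seen, among those that changed at least 2-fold with no overlap between the ages. DIO2, the deiodinase that turns thyroxine into the active thyroid hormone, read 8.39, 8.40 and 7.96 on the E10 arrays and 10.43, 10.32 and 10.39 on the E14 arrays. All E14 arrays were higher, and DIO2 rose by 2.13 ± 0.13 (SE), or 4.38-fold (adjusted p = 6.56e-06). HSD11B1B, named for a hydroxysteroid dehydrogenase of the kind that reduces inactive glucocorticoids, rose by 2.14 ± 0.23 (SE, adjusted p = 3.25e-04). ENPP2, autotaxin, which makes lysophosphatidic acid, read 8.12, 8.08 and 8.14 on the E10 arrays and 10.22, 10.30 and 10.22 on the E14 arrays. The ages were far apart, and ENPP2 rose by 2.13 ± 0.094 (SE), or 4.39-fold (adjusted p = 7.33e-07). CD82, a tetraspanin, rose by 2.11 ± 0.077 (SE, adjusted p = 2.25e-07), the aldo-keto reductase AKR1B10 by 2.06 ± 0.093 (SE, adjusted p = 8.93e-07), and CALCA, which encodes calcitonin and a related peptide, by 1.97 ± 0.16 (SE, adjusted p = 5.41e-05).

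The genes below were chosen in the same way, with no count of other genes of their kind. CEBPB, a transcription factor of acute responses, read 7.74, 7.87 and 7.88 on the E10 arrays and 9.76, 9.60 and 9.78 on the E14 arrays. It was higher on every E14 array by 1.88 ± 0.12 (SE), or 3.68-fold (adjusted p = 8.38e-06). SOCS1, a feedback inhibitor related to SOCS3, rose by 1.34 ± 0.12 (SE, adjusted p = 1.05e-04), NFKBIZ, a nuclear inhibitor protein of the NF-kappa-B family, by 1.02 ± 0.10 (SE, adjusted p = 1.27e-04), and EXFABP, a chicken lipocalin, by 1.65 ± 0.19 (SE, adjusted p = 4.67e-04). The lipases PNPLA2 (1.47) and MGLL (1.21), which free fatty acids from droplets, rose beside PLIN2. LUC7L3, a splicing factor, read 10.39, 10.01 and 10.40 on the E10 arrays and 9.01, 8.96 and 8.87 on the E14 arrays. The E14 arrays were all lower, and LUC7L3 fell by 1.32 ± 0.12 (SE, adjusted p = 7.71e-05). PNISR (-1.09), TTC14 (-1.19) and SAFB2 (-1.18), which bind RNA or nuclear matrix, fell as well. The potassium channel KCNK2 fell by 1.14 ± 0.065 (SE, adjusted p = 4.44e-06), while its relative KCNK18 rose by 2.22 ± 0.19 (SE, adjusted p = 7.55e-05).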
